A study of Mus musculus with 16 samples.

Results

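The libraries described here are the 8 of the importin α3 line, out of 16 in the series, divided into 4 called early and 4 called late by the balance of 2 embryonic globin transcripts. Early libraries were selected on a measured value: log2 of the Hbb-bh1 count over the Hbb-y count above -5.5. They are KO_alpha3 42, KO_alpha3 81, WT_alpha3 45 and WT_alpha3 79. Late libraries lie below that limit and are KO_alpha3 50, KO_alpha3 75, WT_alpha3 54 and WT_alpha3 55. The names early and late stand only for the globin classes, since every library carries the same labelled age, embryonic day 13.5.

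All libraries were made from dorsal root ganglia of the lumbar level, where the cell bodies of sensory neurons of the hindlimb lie, in C57BL/6 mouse embryos, by RNA sequencing of polyadenylated transcripts. KO_alpha3 embryos lack importin α3, the product of Kpna4, a carrier that binds the nuclear localization signal of proteins bound for the nucleus, and WT_alpha3 libraries are the wild types labelled with that line. No treatment was given. The other 8 libraries come from a second line, with wild types (WT_beta) and knockouts of the untranslated end of the importin β1 transcript (KO_beta), and served as libraries that the globin rule did not use. The labels do not name the knockout allele, whether the knockout is limited to a cell type, or whether each library is its own embryo. The p-values below thus reflect variation among these libraries alone, some of which may be technical.

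Primitive red cells arise in the yolk sac and switch between embryonic β-like globins as they mature: Hbb-bh1 transcripts decline before those of Hbb-y. In the dorsal root ganglion, neural crest progenitors held by Notch signalling leave the cell cycle under proneural factors of the basic helix-loop-helix class, the Neurog and Neurod genes. Large mechanosensory and proprioceptive neurons are born before the smaller pain- and temperature-sensing neurons. Newborn neurons then switch on subtype factors, ion channels, peptides and the machinery of axons and synapses, while the glial progenitors that remain become satellite glia and Schwann cell precursors.

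The globin ratio was -5.10 in KO_alpha3 42, -3.71 in KO_alpha3 81, -4.79 in WT_alpha3 45 and -4.10 in WT_alpha3 79. In the late libraries it was -6.81 in KO_alpha3 50, -6.03 in KO_alpha3 75, -6.93 in WT_alpha3 54 and -6.71 in WT_alpha3 55. KO_alpha3 42 lay just inside the limit and KO_alpha3 75 just outside it. The late ratios rest on few reads of Hbb-bh1, 49 to 145 per library, against 824 to 6678 in early libraries. These 2 genes chose the classes, are described without a test, and are left out of every count below. Hba-x, the α-like globin of the same primitive red cells, ran from 360 to 3145 CPM (counts relative to library totals adjusted by the TMM method) in early libraries and from 75.8 to 162 CPM in late ones, and is likewise given without a test.

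**Figure D1:**
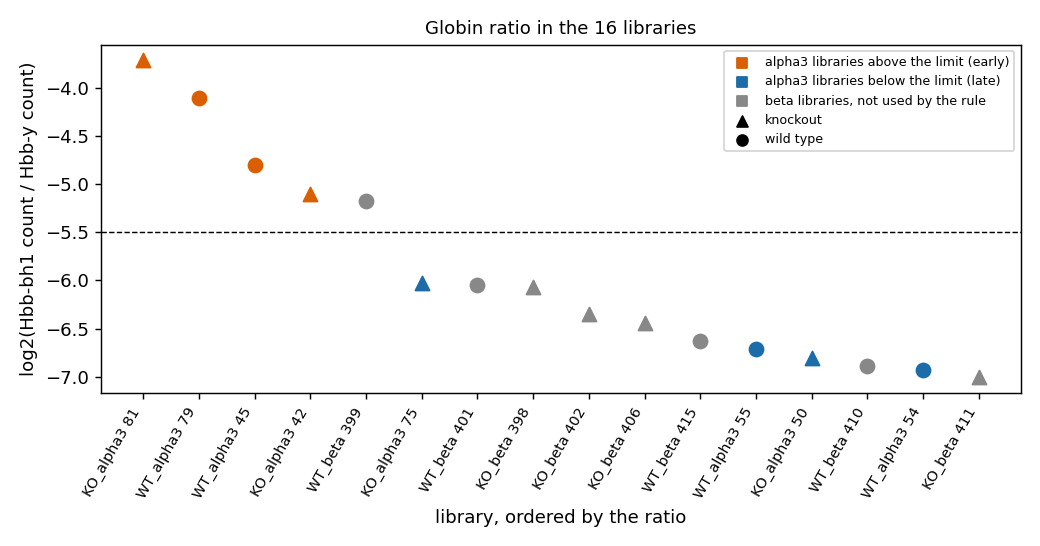
Log2 ratio of Hbb-bh1 to Hbb-y counts (vertical axis) in the 16 libraries, ordered by the ratio; the dashed line is the limit of -5.5, triangles are knockouts and circles wild types. The 4 early libraries lie between -5.10 and -3.71 and the 4 late ones between -6.93 and -6.03; of the 8 beta libraries, in grey, WT_beta 399 alone lies above the limit.

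Total counts of the 8 libraries ran from 19682595 to 24850289. Kpna4 was at 0.609 to 1.13 CPM in the 4 knockouts and 67.5 to 81.7 CPM in the 4 wild types, as labelled. The early and late classes hold 2 knockouts and 2 wild types each. Y-linked transcripts were near 0 in both early knockouts and present in the other 6 libraries (summed CPM from 0.0419 to 129 in early and from 103 to 145 in late), so within the knockouts sex and class cannot be told apart. Defining markers of sensory neurons were at high levels throughout: Isl1 ran from 414 to 673 CPM, Tlx3 from 159 to 247 and Pou4f1 from 241 to 489. The glial marker Sox10 ran from 238 to 314 CPM. Markers of sensory neurons and glia were thus present in all 8 libraries. Genes of the lumbar level, which were not, are given below with the Hox genes.

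Early libraries had higher levels of neurogenic and cell cycle genes and lower levels of ion channel, peptide, synaptic, axonal and glial maturation genes than late libraries. In an edgeR quasi-likelihood fit with genotype as covariate, 6363 of 15626 genes (40.7%) differed at a Benjamini-Hochberg adjusted p under 0.05. Of these, 3190 (20.4% of genes tested) were higher and 3173 (20.3%) lower in early. All folds below are log2 early over late with their standard error (SE), and the median over all genes tested was 0.03. In bulk samples, fewer cells of a type and less RNA per cell cannot be told apart. With such a background, the count of called members in a list is to be read against 1 in 5 genes in each direction.

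**Figure D2:**
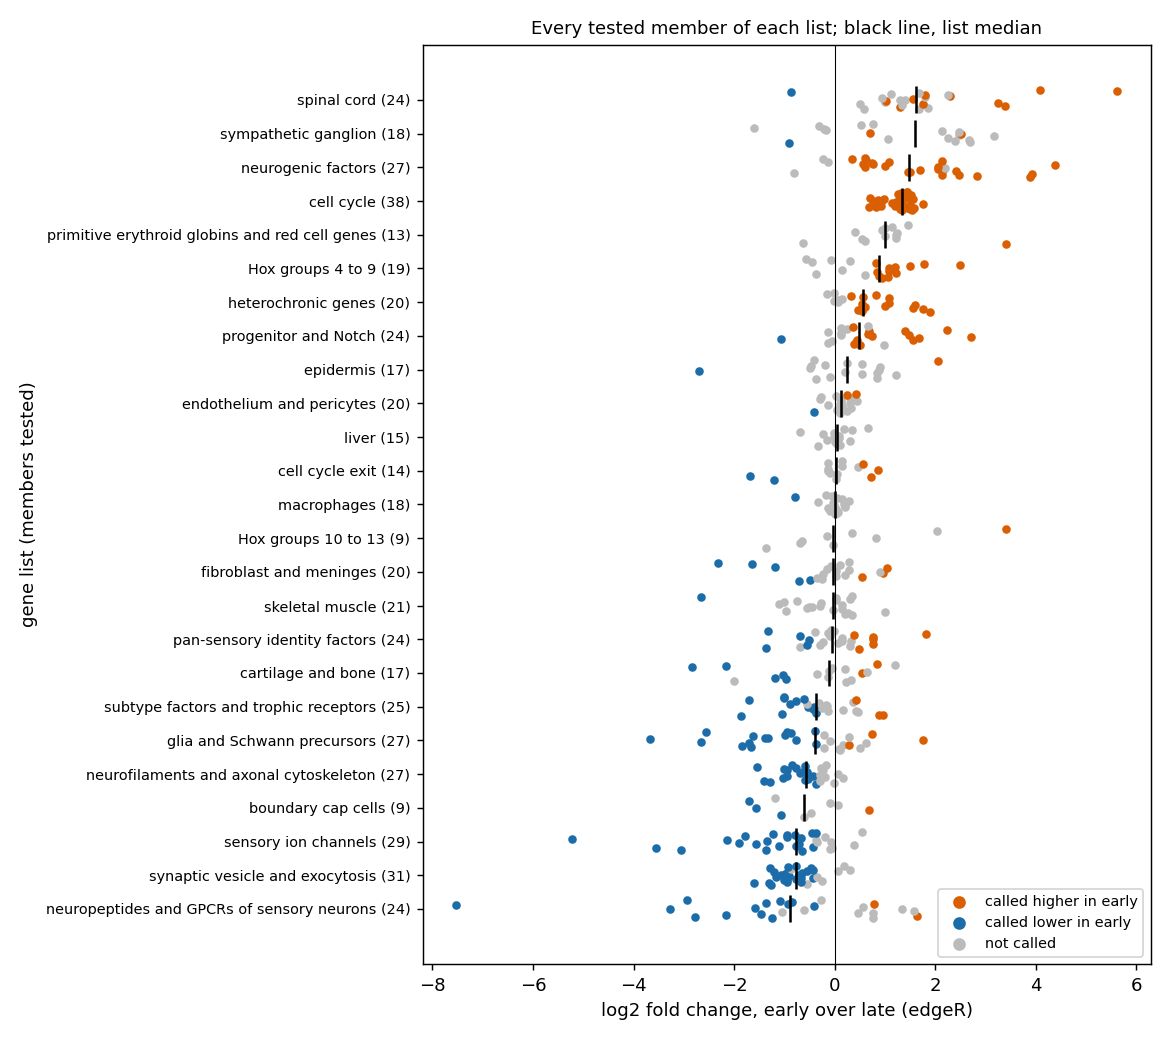
Log2 fold change, early over late (horizontal axis), of every tested member of 25 gene lists; orange and blue points are called higher and lower in early, grey points are not called, and black lines are list medians. All 38 cell cycle genes lie right of 0 and are called, while no member of the ion channel, synaptic or axonal lists is called higher in early.

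Progenitor genes were mostly higher in early. Of 24 progenitor and Notch pathway genes, 14 were called higher and 1 lower in early, with a median log2 fold change of 0.48. Hes5, a Notch target that holds progenitors undifferentiated, was at 25.0, 28.5, 19.2 and 26.8 CPM in KO_alpha3 42, KO_alpha3 81, WT_alpha3 45 and WT_alpha3 79. In the late libraries, in the order KO_alpha3 50, KO_alpha3 75, WT_alpha3 54 and WT_alpha3 55, it was at 8.54, 8.57, 7.67 and 8.82 CPM. The groups did not overlap, and KO_alpha3 75 was level with the other late libraries; the log2 fold change was 1.56 ± 0.13 (adjusted p = 0.0017). Hes5 lies on mm10 chromosome 4, from 154960626 to 154962372.

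Other genes of the Notch pathway gave fold changes of several sizes. The ligand gene Dll1 was higher in early by 1.69 ± 0.24 (adjusted p = 0.00214), from 20.02 to 46.5 CPM against 6.92 to 10.9 CPM. Dll3, a ligand-like protein that acts within the cell that makes it, was higher by 2.72 ± 0.36 (adjusted p = 0.00194), and the receptor gene Notch1 by 0.39 ± 0.11 (adjusted p = 0.0269), with overlapping classes. Sox2, a progenitor factor that ganglion glia keep, was higher by 0.52 ± 0.16 (adjusted p = 0.0309), at 67.8 to 114 CPM against 54.1 to 64.3 CPM. Nes, an intermediate filament of progenitors, was higher by 1.4 ± 0.14, whereas Hes1, another Notch target, gave -0.06 ± 0.11 and was not called (adjusted p = 0.711). The calls of Sox2 and Notch1 were lost when some single libraries were left out (adjusted p up to 0.0994 and 0.0891). Hey2 was the 1 member called lower, by -1.06 ± 0.25 (adjusted p = 0.0115).

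Neurogenic factors had the highest median of the neuronal lists. Of 27 genes, 23 were called higher and none lower, with a median of 1.49. Neurog1, which drives the later, mainly nociceptive wave of neurogenesis in these ganglia (mm10 chromosome 13, 56250478 to 56252180), was at 87.2, 92.9, 49.9 and 58.0 CPM in the early libraries, in the order above. Late values were 2.61 CPM in KO_alpha3 50, 13.5 in KO_alpha3 75, 3.75 in WT_alpha3 54 and 1.25 in WT_alpha3 55. No late library came near an early one, but KO_alpha3 75 was several times above the other late libraries. The log2 fold change was 3.89 ± 0.49 (adjusted p = 0.00181), a fold of 14.8.

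Neurog2, which acts in the first wave of sensory neurogenesis, was at low levels in late libraries, 0.301 to 0.411 CPM against 1.36, 1.68, 2.27 and 7.06 CPM in the early ones. It was higher in early by 2.83 ± 0.51 (adjusted p = 0.00384). The factors that follow the Neurog genes were also higher in early. Neurod1 was at 147 to 262 CPM in early libraries and at 25.1, 91.0, 26.3 and 15.7 CPM in the late ones, with a log2 fold change of 2.48 ± 0.38 (adjusted p = 0.00237). Neurod4 was at 32.3 to 81.5 CPM in early libraries and at 1.31, 11.8, 1.64 and 0.551 CPM in the late ones, with a log2 fold change of 3.94 ± 0.63 (adjusted p = 0.00271). For both genes KO_alpha3 75 was again the late library closest to the early ones.

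Hes6, a Hes protein that promotes rather than blocks differentiation, was higher by 1.70 ± 0.14, and the antiproliferative genes Btg2 and Gadd45g by 2.15 ± 0.22 and 2.06 ± 0.21, each with an adjusted p of 0.0017. Among the 23 called genes, 21 had no overlap between the classes.

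**Figure D3:**
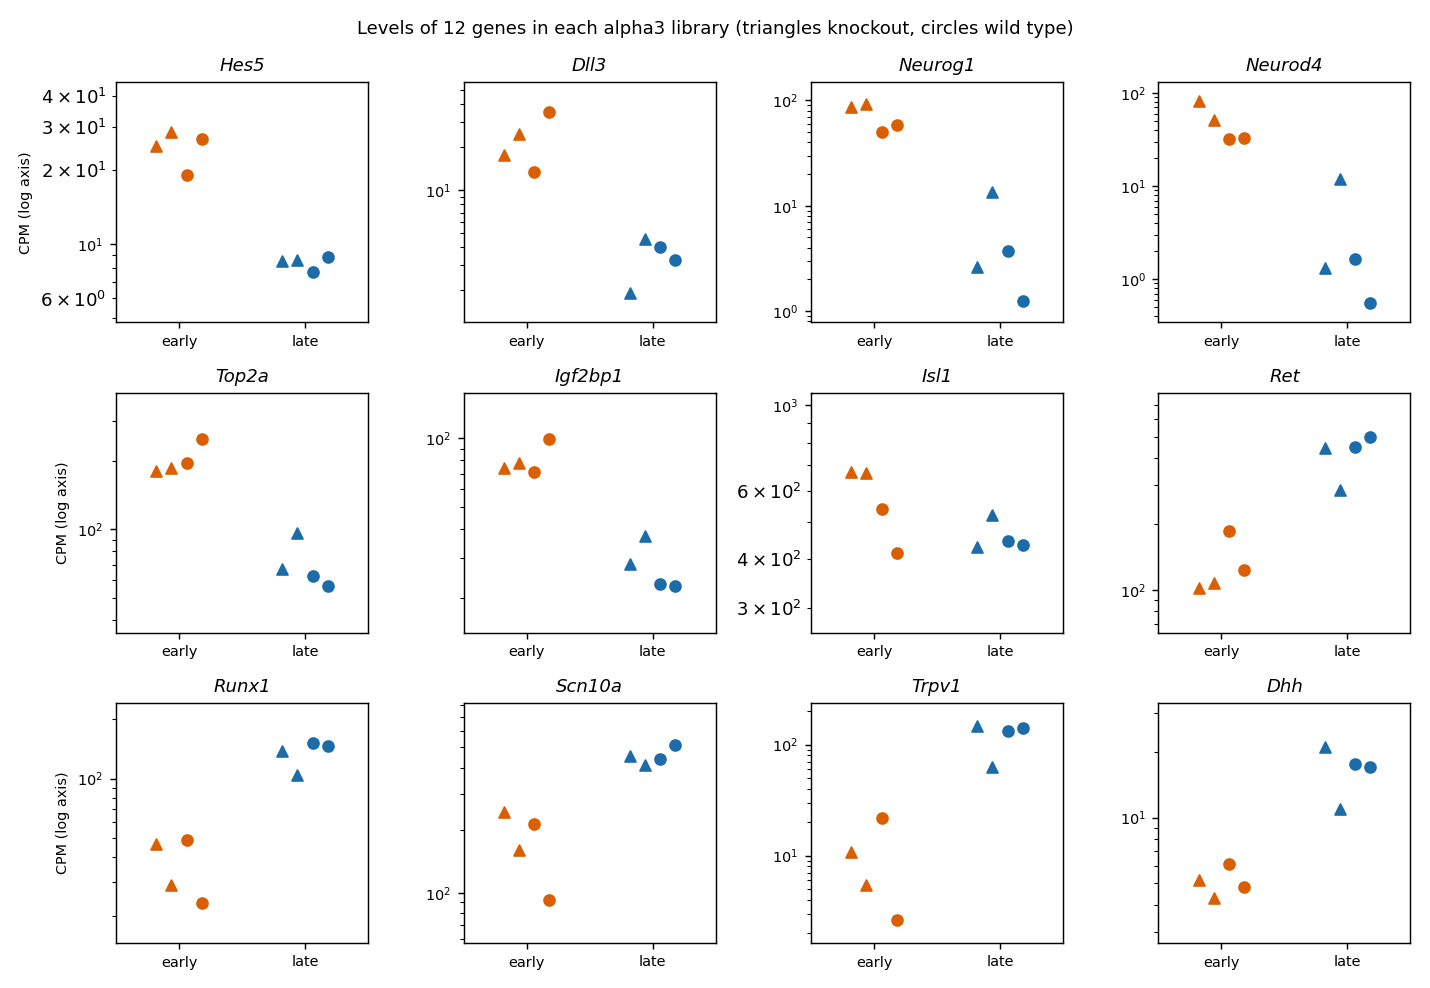
Levels in CPM (log axis) of 12 genes in each alpha3 library, early in orange and late in blue, triangles for knockouts and circles for wild types. The classes do not overlap for 11 of the genes; for Isl1 they do, and for Neurog1 and Neurod4 the late triangle above the rest is KO_alpha3 75.

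Cell cycle genes were higher in early. All 38 cell cycle genes were called higher, with no overlap between the classes for any of them and a median of 1.34. Top2a, which untangles replicated DNA, was at 181, 186, 196 and 250 CPM in the early libraries and at 67.3, 96.7, 62.2 and 56.3 CPM in the late ones. Its log2 fold change was 1.53 ± 0.18 (adjusted p = 0.00177). Mki67, a protein of cycling cells, was at 179, 202, 231 and 483 CPM in early libraries and at 88.2 to 137 CPM in late ones, a difference of 1.33 ± 0.32 (adjusted p = 0.012). WT_alpha3 79 was the highest library for both. The mitotic kinase gene Cdk1 was higher by 1.19 ± 0.14 and the phosphatase gene Cdc25c by 1.77 ± 0.20. The fold changes of the list were larger between the wild types (median 1.70) than between the knockouts (median 0.92). The difference was tested gene by gene. The main edgeR fit called no member, edgeR without a filter called Ccnd1, and DESeq2 called 2, Ccnd1 and Kif11. How often the edgeR test finds simulated differences is given below.

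Inhibitors of the cell cycle did not move as a group: of 14 tested genes, 3 were called higher and 2 lower, with a median of 0.04. Cdkn1c, which is expressed as precursors leave the cycle, was higher in early by 0.72 ± 0.16 (adjusted p = 0.00857), at 555 to 795 CPM against 321 to 471 CPM. Rbl1 and Trp53inp1 were the other members called higher, by 0.87 ± 0.15 and 0.57 ± 0.13. Cdkn1a was lower in early by -1.21 ± 0.18 (adjusted p = 0.00229), at 18.8 to 33.8 CPM against 37.7 to 72.2 CPM. Cdkn2b, at most 1.05 CPM in all 8 libraries, was lower by -1.68 ± 0.50 with overlapping classes.

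Because the cell cycle genes moved together, the promoter windows of the lists were searched for short motifs, chosen after several had been tried. Windows run from 250 bases before to 50 after the gene start (RefSeq, GRCm38.p6), and both strands were searched. The letters TTTGAA, the core of the cell cycle homology region, were in 13 of 30 windows of cell cycle genes (43.3%) against 17.9% of all 32851 windows. CCAAT was in 24 of the 30 (80%) against 37.4% of all. Of windows of progenitor and Notch genes, 3 of 19 (15.8%) held GTGGGAA, a motif bound by the Notch effector Rbpj, against 6.38% of all. CAGATG, an E-box that proneural factors can bind, was in 5 of 28 windows of neurogenic factors (17.9%) against 17.2% of all. Of 3029 windows of genes called higher in early, 15.2% held TTTGAA, 41.9% CCAAT, 5.55% GTGGGAA and 10.4% CAGATG. Not every list member had a window, and some had several: the windows come from 29 cell cycle, 17 progenitor and Notch, and 19 neurogenic genes. None of the motifs contains another, and a match is a description of sequence, not a site. The 5 stretches below are shown because they hold the letters just ahead of the start of genes named here. They run 5′ to 3′ on the strand of the gene, with the motif or its reverse complement in capitals. The Hes5 window is set on a start at 154960923, inside the RefSeq span of the gene given above, which begins at an earlier base.
Cdk1, chr10:69352910-69352939, minus strand: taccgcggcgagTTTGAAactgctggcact
Cdc20, chr4:118437344-118437373, minus strand: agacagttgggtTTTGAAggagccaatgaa
Top2a, chr11:99024195-99024224, minus strand, reverse complement: gctagataaaggTTCAAAtgaaactaggga
Ube2c, chr2:164769888-164769917, plus strand, reverse complement: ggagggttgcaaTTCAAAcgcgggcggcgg
Hes5, chr4:154960828-154960857, plus strand: tggccgccgagtGTGGGAAcggccgcggcg
The first 4 genes were all called higher in early: Cdc20, an activator of the anaphase-promoting complex, by 1.5 ± 0.20 and Ube2c, a ubiquitin-conjugating enzyme of mitotic exit, by 1.44 ± 0.25.

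Genes of the pan-sensory identity list were called in similar numbers in both directions. Of 24 genes, not all of which mark every sensory neuron, 6 were called higher and 5 lower, and the median was -0.04. Lhx1, among the 6, had 146 and 242 counts in early wild types, 11 and 23 in early knockouts and 6 to 55 in late libraries. Isl1 was not called (0.31 ± 0.12, adjusted p = 0.071), and neither was Tlx3 (0.07 ± 0.12, adjusted p = 0.67). Pou4f1, which with Isl1 ends the neurogenic programme in newborn sensory neurons, was higher by 0.48 ± 0.13 (adjusted p = 0.0176), but the classes overlapped: 436, 489, 319 and 300 CPM against 241, 317, 275 and 250 CPM; its adjusted p reached 0.0581 with single libraries left out. The members called higher with no overlap were Cited2, Sox11 and Tlx2, by 0.77 ± 0.10, 0.77 ± 0.11 and 0.76 ± 0.12. Sox11 is a factor of newborn neurons. In the opposite direction, Pou4f2 was lower by -1.37 ± 0.16 (adjusted p = 0.00173) and Etv1, a factor of proprioceptive and other maturing neurons, by -1.33 ± 0.22 (adjusted p = 0.00321).

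Subtype factors and trophic receptors were more often called lower in early. Of 25 genes, 3 were called higher and 12 lower, with a median of -0.38. The genes called higher were Runx3, a factor of proprioceptive neurons, by 0.89 ± 0.21 (adjusted p = 0.0114), Shox2, a factor of touch neurons, by 0.96 ± 0.14 (adjusted p = 0.00209), and Gfra1, by 0.42 ± 0.13 (adjusted p = 0.0297, up to 0.108 with single libraries left out). Runx3 was at 113, 156, 107 and 99.0 CPM in early libraries and at 53.5, 98.2, 64.3 and 41.6 CPM in late ones, so that KO_alpha3 75 nearly met WT_alpha3 79.

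Runx1, a factor of nociceptors (mm10 chromosome 16, 92601466 to 92826074), was at 46.8, 28.7, 48.5 and 23.5 CPM in early libraries and at 137, 105, 151 and 146 CPM in late ones. It was lower in early by -1.86 ± 0.25 (adjusted p = 0.00191). Within the early class the 2 libraries with the highest globin ratio, KO_alpha3 81 and WT_alpha3 79, had the lowest Runx1. Ret, the signalling receptor for ligands of the GDNF family, was at 102, 108, 187 and 123 CPM against 442, 285, 451 and 497 CPM, a log2 fold change of -1.70 ± 0.17 (adjusted p = 0.0017).

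Of the neurotrophin receptors, Ntrk2, the receptor for BDNF, gave -0.31 ± 0.11 (adjusted p = 0.0563) and Ntrk3, the receptor for neurotrophin 3, 0.38 ± 0.13 (adjusted p = 0.0515); both missed the threshold. Gfra2, a co-receptor of Ret, was lower by -0.62 ± 0.06. Maf, a factor of touch neurons, was lower by -1.05 ± 0.12, so not every gene of large neurons was higher in early.

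Genes of the working sensory neuron were lower in early. Of 29 ion channel genes tested from a list of 32, none was called higher and 21 were called lower, with a median of -0.77. Trpv1, the heat and capsaicin channel (mm10 chromosome 11, 73234149 to 73261322), was at 10.9, 5.49, 22 and 2.62 CPM in early libraries and at 149, 62.7, 132 and 141 CPM in late ones. The log2 fold change was -3.56 ± 0.56 (adjusted p = 0.00262), an 11.8-fold higher level in late. KO_alpha3 75 held less than the other late libraries but more than any early one. Scn10a, a sodium channel of nociceptors, was at 245, 161, 214 and 92.1 CPM against 413 to 511 CPM, and was lower by -1.36 ± 0.27 (adjusted p = 0.00528). Piezo2, the touch channel, was at 81.9 to 111 CPM against 282, 174, 259 and 386 CPM, lower by -1.56 ± 0.19 (adjusted p = 0.00177). Kcna2, a potassium channel of axons, was lower by -1.78 ± 0.18 (adjusted p = 0.0017).

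Genes of the list of neuropeptides and receptors coupled to G proteins were mostly at low levels. Of 24 tested, 2 were called higher and 13 lower (median -0.88). The 13 include Htr3a, which encodes an ion channel opened by serotonin. Gal, the galanin precursor, was not at a low level. It had 257 to 1479 counts in early libraries and 3179 to 4059 in late ones, and was called lower. Tac1, the precursor of substance P, was at 2.45, 0.670, 2.76 and 1.19 CPM in early libraries and at 16.6, 5.79, 11.6 and 15 CPM in late ones. It was lower by -2.78 ± 0.48 (adjusted p = 0.00336). Calca, the precursor of the peptide CGRP, was scarcely present, at 0.642 to 1.72 CPM against 1.92 to 4.96 CPM, with -1.24 ± 0.39 (adjusted p = 0.0359, up to 0.0907 with single libraries left out). Mrgprx1, an itch receptor, was at 0 in 3 early libraries and at 0.122 CPM in WT_alpha3 45, against 7.19, 0.479, 6.12 and 13.6 CPM in late ones (adjusted p = 0.00244). The opioid receptor genes Oprd1 and Oprm1 were lower by -1.57 ± 0.21 and -3.27 ± 0.51. Sst and Lpar3 were the 2 members called higher, and the classes overlapped for both.

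Synaptic and axonal genes were also lower in early. Of 31 genes of synaptic vesicles and exocytosis, none was called higher and 24 were called lower, with a median of -0.77. Syt7, a calcium sensor of exocytosis, was lower by -1.59 ± 0.22 and Rims1, a scaffold of the release site, by -1.28 ± 0.17 (adjusted p = 0.00198 and 0.00182). Snap25, a core member of the fusion complex, was not called (-0.25 ± 0.11, adjusted p = 0.0922), with 118 to 162 CPM against 147 to 179 CPM.

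Of 27 genes of neurofilaments and the axonal cytoskeleton, 18 were called lower and none higher (median -0.56). Nefh, the heavy neurofilament, was at 39.9, 47.8, 34.1 and 31.1 CPM against 112, 61.5, 99.9 and 98.2 CPM, lower by -1.29 ± 0.20 (adjusted p = 0.00255). Prph, an intermediate filament of small sensory neurons, was at 707 to 1027 CPM against 1507 to 2710 CPM, lower by -1.41 ± 0.21 (adjusted p = 0.00225). KO_alpha3 75 was the lowest late library for both.

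Among 27 genes of glia and Schwann cell precursors, 15 were called lower and 3 higher (median -0.39). The genes called lower include several, but not all, of those of myelin and of Schwann cell maturation. Dhh, a signal from Schwann cells to the nerve sheath, was at 5.17, 4.27, 6.16 and 4.79 CPM in early libraries and at 20.9, 10.9, 17.5 and 17 CPM in late ones, lower by -1.70 ± 0.21, and Mbp, a myelin protein, was lower by -1.33 ± 0.17. In contrast Sox10, which marks the whole glial lineage, was not called (0.12 ± 0.07, adjusted p = 0.186), and neither was the early glial gene Fabp7 (0.51 ± 0.20, adjusted p = 0.0736). Itga4, Pou3f1 and Ets1 were called higher, by 0.75 ± 0.15, 1.76 ± 0.49 and 0.29 ± 0.10. Pou3f1 had 121 and 188 counts in WT_alpha3 45 and WT_alpha3 79 and 15 to 41 in the other libraries. Of 9 boundary cap genes, which mark cells at the nerve roots, 3 were called lower and 1, Npr3, higher; Ret and Hey2 are counted both there and in another list.

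Heterochronic genes, which pace developmental timing in many tissues, were higher in early: 14 of 20 were called higher and none lower (median 0.56). Igf2bp1, an RNA-binding protein repressed by let-7 (mm10 chromosome 11, 95957163 to 96005944), was at 74.3, 78.2, 71.2 and 98.6 CPM in early libraries and at 28.1, 37.3, 23.0 and 22.7 CPM in late ones. Its log2 fold change was 1.55 ± 0.17 (adjusted p = 0.0017). Lin28b, which blocks the maturation of let-7, differed less, by 0.55 ± 0.16 (adjusted p = 0.0228), at 15.2 to 21.1 CPM against 9.14 to 12.9 CPM. Trim71, a let-7 target, was higher by 1.6 ± 0.25 and Igf2bp3 by 1.00 ± 0.12. Hmga2, named after its values were seen, was higher by 1.77 ± 0.31 (adjusted p = 0.0035).

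**Figure D4:**
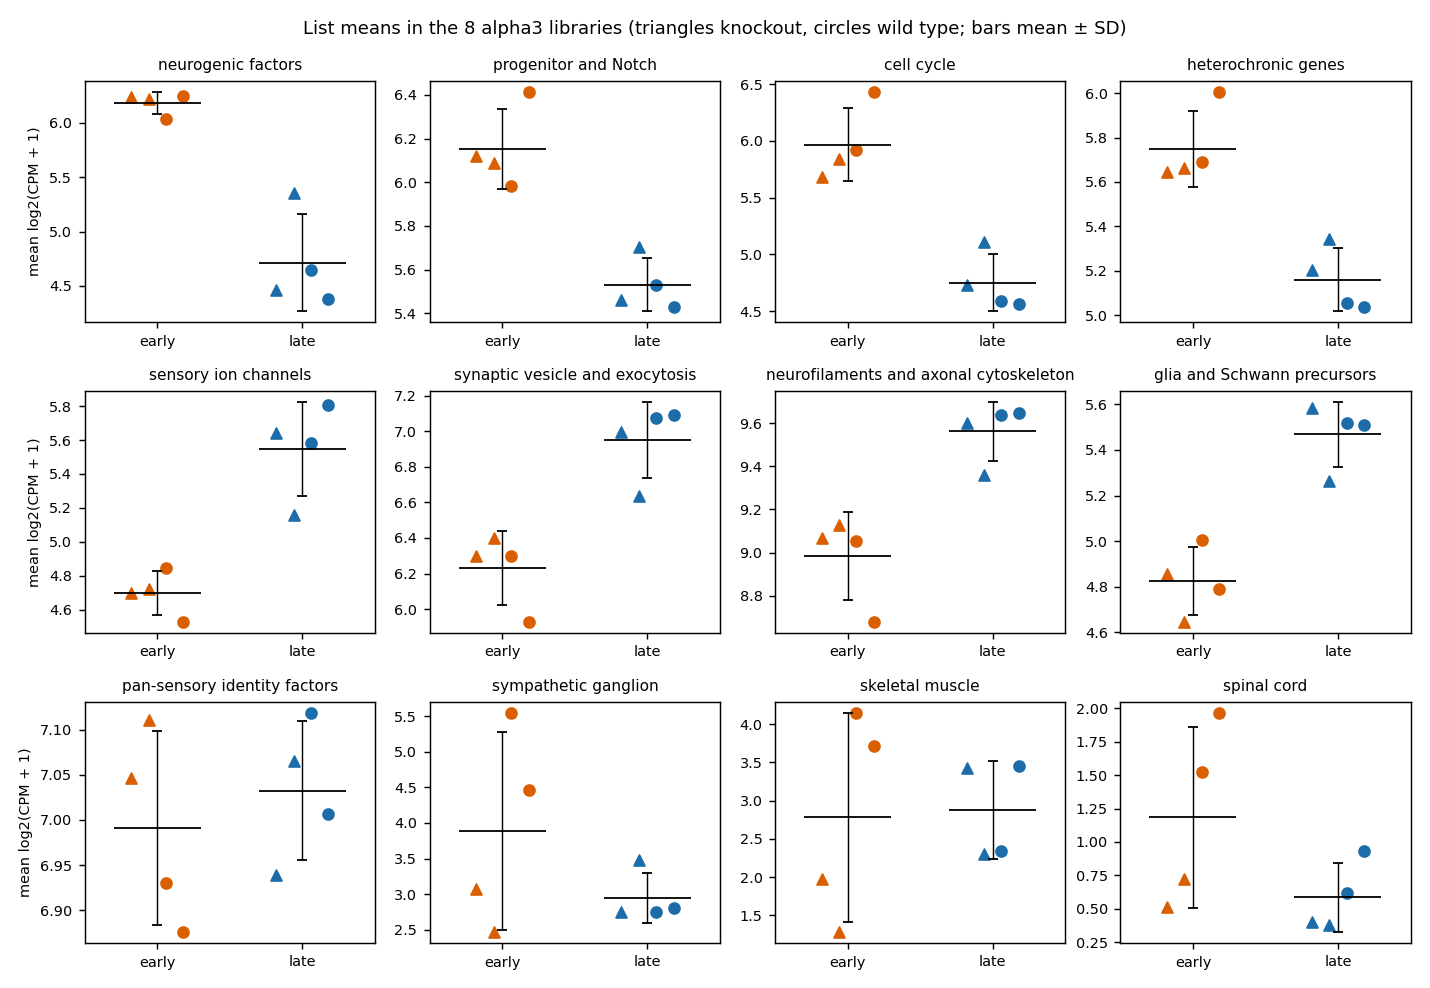
Mean log2(CPM + 1) of 12 gene lists (vertical axis) in the 8 alpha3 libraries, early against late, triangles for knockouts and circles for wild types, with the class mean and SD over 4 libraries as bars. The neurogenic list separates the classes (6.04 to 6.24 against 4.38 to 5.36), while the muscle and sympathetic lists are highest in both early wild types and lowest in the early KO_alpha3 81.

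By p-value rather than by list, the genes with the clearest difference included few classical markers. The 12 rises of lowest p with no overlap were Shisa2, Hes5, Cdca4, Hes6, Snrpd3, Pdlim4, Lgi4, Cbx2, Hmgb3, Abracl, Ticrr and Tpm4. Shisa2, which restrains Wnt and FGF receptors (mm10 chromosome 14, 59625281 to 59631660), was at 30.6, 33.9, 28.1 and 25.6 CPM against 9.02, 12.2, 6.81 and 6.31 CPM, a difference of 1.81 ± 0.13. Pdlim4, a cytoskeletal adaptor, was higher by 1.94 ± 0.17, Ticrr, a factor of replication initiation, by 1.55 ± 0.15, and Cbx2, a Polycomb subunit, by 0.93 ± 0.09. Smaller fold changes with small errors were those of Snrpd3, a core splicing protein, 0.60 ± 0.05, and Hmgb3, a chromatin protein, 0.67 ± 0.06. All 12 had an adjusted p of 0.0017.

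The 12 falls of lowest p were Olfml2a, Trpc4, Itpkb, Gsn, Plxnc1, Galnt10, St8sia1, Chadl, Eef2k, Plxna2, Serpine2 and Rab27b. Olfml2a, which encodes a secreted olfactomedin-domain protein (mm10 chromosome 2, 38931980 to 38960585), was at 27.7, 20.2, 39.2 and 26.7 CPM in early libraries and at 165, 119, 163 and 181 CPM in late ones. It was lower by -2.47 ± 0.17, a fitted fold of 5.55 for late over early. Trpc4, a cation channel, was lower by -2.19 ± 0.16, and Chadl by -1.94 ± 0.16. The plexins Plxnc1 and Plxna2, receptors for semaphorins, were lower by -0.64 ± 0.05 and -0.85 ± 0.07. Rab27b, a small GTPase of vesicle release, was lower by -1.86 ± 0.16, from 4.82 to 8.55 CPM against 15.9 to 29.3 CPM. The adjusted p was 0.0017 for each of the 12.

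The classes were not uniform inside. Among the 3190 genes called higher in early, KO_alpha3 75 was the late library nearest to the early ones for 2546 (79.8%), and among the 3173 called lower for 2617 (82.5%). It is also the late library with the highest globin ratio. On the early side no library held such a place: WT_alpha3 45 was nearest to the late class for 1226 (38.4%) and 1249 (39.4%) of these genes. For the mean of the neurogenic list KO_alpha3 75 was at 5.36, between the other late libraries (4.38 to 4.65) and the early ones (6.04 to 6.24).

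The genotypes were then taken apart, since the 2 fits share no library. Between early and late wild types alone 4506 of 15301 genes (29.4%) were called, 2031 (13.3%) higher and 2475 (16.2%) lower. Between early and late knockouts alone 269 of 15055 (1.79%) were called, 92 (0.611%) higher and 177 (1.18%) lower, with KO_alpha3 75 as 1 of the 2 late libraries. Of 4419 genes called in wild types and tested in both, 4212 (95.3%) had the same direction in the knockouts, against 76.5% of all genes tested in both, and 228 were called there with that direction. Of 269 genes called in knockouts, 265 (98.5%) had the same direction in wild types.

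For the neurogenic list the medians were 1.49 in wild types and 1.39 in knockouts. Neurog1 differed by 4.38 ± 0.43 in wild types and by 3.49 ± 0.64 in knockouts, and Trpv1 by -3.47 ± 0.82 and -3.69 ± 0.52. Medians of the ion channel list were -0.92 and -0.50, and of the synaptic list -1.05 and -0.50. A test of the difference itself, the interaction of class and genotype, called 6 of 15626 genes (0.0384%) with edgeR. Of these, 5 are sex-linked and the other is Dlk1, a Notch-like gene of the Delta family with imprinted expression. In simulated data this edgeR test recovered 36% of log2 differences of 1 and 77% of those of 2. A gene it did not call may therefore still differ between the genotypes. At an unadjusted p under 0.05 there were 1677 genes, and DESeq2 called 113, among them 7 genes of the sympathetic list, such as Dbh, 5 of the muscle list and 1 of the neurogenic list, Eya1. Dlk1 was at 249 and 249 CPM in early wild types and 164 and 196 CPM in late ones, but at 107 and 108 CPM in early knockouts and 191 and 197 CPM in late ones. Its early-late difference was 0.43 ± 0.11 in wild types and -0.85 ± 0.08 in knockouts, and the 2 differed by 1.32 ± 0.13 (adjusted p = 0.0394).

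**Figure D5:**
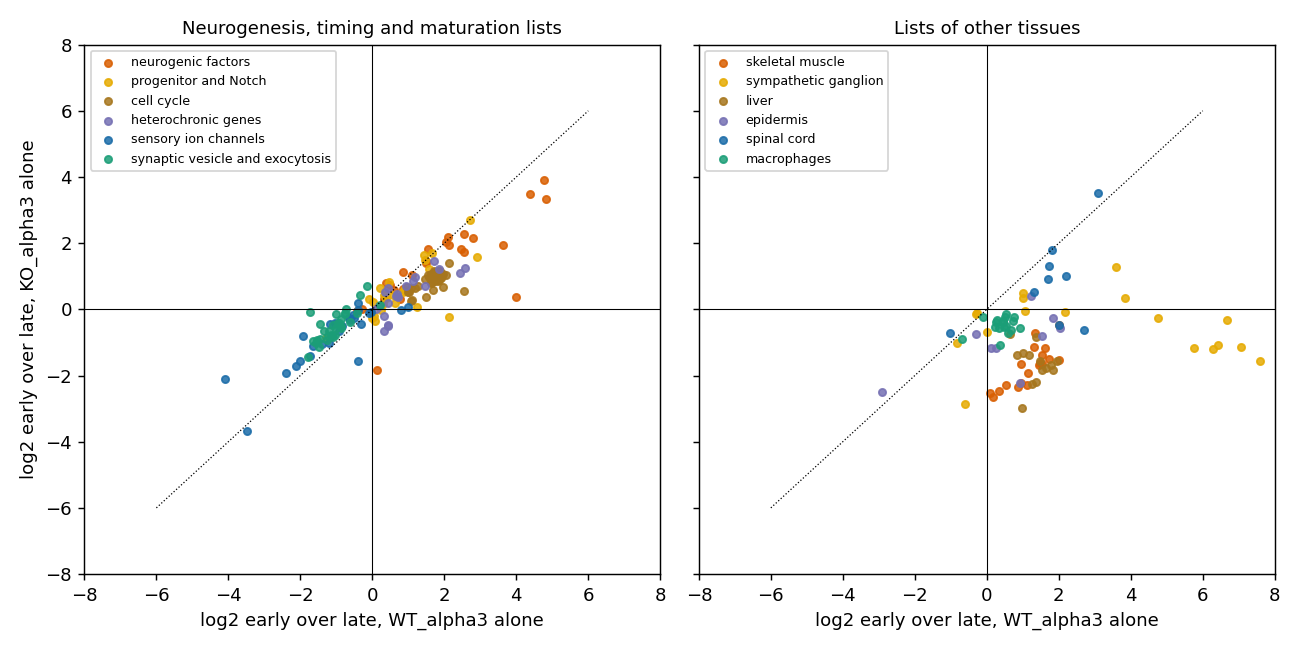
Log2 fold change, early over late, in the wild types alone (horizontal axis) and in the knockouts alone (vertical axis) for members of 6 neurogenesis, timing and maturation lists (left) and 6 lists of other tissues (right); the dotted line marks equality. Most points of the left panel lie in the quadrants of equal sign. In the right panel muscle and liver genes lie in the lower right, and none tested in both genotypes had equal sign. Of the 21 and 15 members in the main fit, those too low to be tested in the knockouts alone, such as Ckm and Fabp1, have no point.

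Lists of neighbouring tissues differed in how they followed the class: the medians of the sympathetic and muscle lists had opposite signs in wild types and knockouts, and that of the spinal cord list was positive in both. The sympathetic list had a median of 1.6, with 2 of 18 members called higher and 1 lower, and its summed level ran from 399.6 to 1150 CPM in early libraries and from 536.9 to 632.6 CPM in late ones. Its median was 2.89 in wild types and -0.30 in knockouts. Dbh, of noradrenaline synthesis, was at 154 and 74.6 CPM in WT_alpha3 45 and WT_alpha3 79 and at 0.628 to 10.6 CPM in the other 6 libraries. Th, which sensory neurons also express, was lower in early by -0.91 ± 0.25.

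Muscle genes showed the same 2 libraries. Of 21 genes, none was called higher and 1 lower, with medians of 1.30 in wild types and -1.65 in knockouts, and a summed level of 40.1 to 635.5 CPM in early and 123.1 to 335.7 CPM in late libraries. Myog was at 29 and 22 CPM in the early wild types, at 4.45 and 1.84 CPM in the early knockouts and at 4.2 to 11.9 CPM in late libraries. In the spinal cord list 10 of 24 genes were called higher and 1 lower (median 1.62, summed level 14.7 to 127 CPM against 10.1 to 28.9 CPM), and 23 of the 24 were above 0. The median was 2.01 in wild types and 0.91 in knockouts. Of the members, 7 had the same sign in both genotypes. Members too low to be tested in the knockouts alone, such as Gsx1 and Chat, are not in that count or in the knockout median. The summed level was 14.7 and 19.7 CPM in the early knockouts and 10.7 and 10.1 CPM in the late ones. The list mean of log2(CPM + 1) was 0.516 and 0.726 in the early knockouts, against 0.400 and 0.382 in the late knockouts and 0.621 and 0.935 in the late wild types. Its defining marker Pax2 was at 11.9 and 23.2 CPM in the early wild types and at 0.762 and 1.89 CPM in the early knockouts, against 0.392, 0.914, 2.10 and 5.31 CPM in the late libraries. Olig2 was at most 1.09 CPM and was at 0 in KO_alpha3 50.

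The liver list did not separate the classes. None of 15 liver genes was called (medians 1.36 in wild types and -1.63 in knockouts), with a summed level of 17.6 to 458 CPM against 84.96 to 130 CPM. The red cell list holds genes of the cells that define the classes. Summed with Hba-x, its level was 545.4 to 5169 CPM in early and 366.4 to 516.3 CPM in late libraries. Hba-x aside, none of its 12 tested members was called. With Hba-x included, the medians of this list were 2.65 in wild types and -0.47 in knockouts, and 2 of 13 members had equal sign. Epidermal, macrophage and endothelial lists had medians of 0.24, 0.01 and 0.13, with at most 2 members called in each direction. By genotype, the epidermal medians were 1.08 in wild types and -0.82 in knockouts, and the macrophage medians 0.47 and -0.45. Of 20 fibroblast and meningeal genes 3 were called higher and 5 lower, with medians of 0.23 in wild types and -0.43 in knockouts, and of 17 cartilage and bone genes 2 and 5, with medians of 0.63 and -0.84. The part of these tissues in the neurogenic difference was not tested. Without WT_alpha3 45 and WT_alpha3 79, in a fit added after the data were seen whose early class holds only knockouts, 3064 genes were called.

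Hox genes, which record position along the body axis, also differed. Of 19 genes of groups 4 to 9, 12 were called higher in early and none lower (median 0.89). Hoxc4 was at 33.6, 66.6, 62.8 and 91.2 CPM in early libraries and at 20.8 to 23.6 CPM in late ones, higher by 1.51 ± 0.25 (adjusted p = 0.00286). Hoxa10, a gene of lumbar level, was not called (-1.37 ± 0.93, adjusted p = 0.269), at 60.1, 0.880, 22.8 and 4.40 CPM in early libraries and at 75.4, 35.7, 66.5 and 35.8 CPM in late ones. Its 2 lowest libraries, KO_alpha3 81 and WT_alpha3 79, are those with the highest globin ratio. Hox genes of groups 10 to 13 summed to 3.65 and 15.1 CPM in these libraries. The same sum was 134.5 CPM in KO_alpha3 42, 86.7 CPM in WT_alpha3 45 and 62.7 to 147 CPM in late libraries. Of 9 genes of these groups tested, 1 was called higher and none lower. With KO_alpha3 81 and WT_alpha3 79 left out 4725 genes were called, and the median of the neurogenic list was 1.5. The part of axial level in the other differences was not tested.

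The 8 beta libraries gave the same measures in libraries the rule did not use. Their globin ratio ran from -7.00 to -5.17, and WT_beta 399 alone lay above the limit, so a slope on the ratio was fitted with genotype as covariate. It was called for 692 of 15371 genes (4.50%), 618 (4.02%) positive and 74 (0.481%) negative. Of 3136 genes called higher in early among the alpha3 libraries, 2307 (73.6%) had a positive slope, and of 3156 called lower, 691 (21.9%), against 49.4% of all genes. Of the first set 195 were called with a positive slope and 2 with a negative one; of the second, 47 with a negative slope and 8 with a positive one.

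Of the cell cycle list 29 of 38 members were called positive, with a median slope of 0.53 per unit of the ratio. Without WT_beta 399 only 1 of the 38 was called (median slope 0.57), and without WT_beta 410, 16. Top2a had a slope of 0.45 ± 0.08 (adjusted p = 0.015) and Mki67 of 0.79 ± 0.10 (adjusted p = 0.00421). All 15 liver genes were called positive as well, and none of them without WT_beta 399, whose summed liver level was 5542 CPM against 24.7 to 642 CPM in the other beta libraries. The part of liver RNA in the cell cycle slopes was not tested. None of 27 neurogenic factors was called, and their median slope was 0.05. Neurog1 was at 9.50 CPM in WT_beta 399 and highest, at 16.3 CPM, in WT_beta 401, whose ratio was -6.04. Its slope was 0.45 ± 0.41 (adjusted p = 0.632). Trpv1 was at 76.0 CPM in WT_beta 399, 59.1 CPM in WT_beta 401 and 94.9 to 134 CPM in the other 6 libraries, with a slope of -0.43 ± 0.13 (adjusted p = 0.122).

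WT_beta 399 decided most of these calls. Without it 37 genes (0.24%) were called, 27 positive and 10 negative, in a fit added for the lists after the data were seen. The shares with a positive slope were then 82.9% of genes higher and 13.8% of genes lower in early, against 50.1% of all. The neurogenic list had a median slope of 0.48, with 24 of 27 members positive, and the synaptic list of -0.29, with 1 of 31 positive. In the same fit the muscle and sympathetic lists had median slopes of 2.18 and 1.75. WT_beta 401 was the library highest in Myog among the 8, at 35.8 CPM.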

How the data were processed

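RNA was measured in 16 libraries, and the 8 of the importin α3 line are described. The deposited file holds raw counts of reads, whole numbers for each gene symbol. Tools listed in the submitters' processing notes, with no role given, are TopHat2 (2.0.10) and HTSeq (0.6.1p1), with mm10 as the build. Which annotation, strand setting or filters applied is not stated there. Overlapping or antisense genes, and near-identical copies, can therefore share reads. A deposited table of normalized values equals the counts times 1 constant per library and was not used.

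Tests used edgeR 4.0.16 under R 4.3.3 unless another tool is named. Genes were filtered with filterByExpr (at least 10 counts, 15 in total), libraries scaled by TMM, and quasi-likelihood p-values (2-sided) adjusted by Benjamini-Hochberg over every gene tested, with 0.05 as threshold. The early-late fit had genotype as covariate and 5 residual degrees of freedom. Further fits took each genotype alone, the interaction of class and genotype, and the slope on the globin ratio in the beta libraries. Levels are TMM-scaled CPM, and list means use log2(CPM + 1). Lists are described by counts and medians, without a test. The fits were tested on simulated data. Of 100 genes given a log2 change of 1, the early-late fit recovered 77%, the interaction fit 36% and the beta slope fit 84%. Unchanged genes called were 2, 12 and 9 in these fits. Only those 100 genes and 100 given a change of 2 were altered. Recovery with 40.7% of genes changed, the share called early against late, was not simulated. No pair of the alpha3 libraries compared, those of 1 genotype and class, differed by as little as sampling noise, so no pair was treated as a repeat deposit of 1 library. This does not show that they are separate embryos.

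The classes, lists, tests and the rule for named genes were chosen with earlier results of these data known. The rule took anchor genes of sensory development, the 12 rises and 12 falls of lowest p with a mean of at least 1 CPM and no overlap between classes, and the 4 called members of lowest p from each list. It took 5 genes in each direction for the interaction and the beta slope, and left out predicted genes, Xist and Y-linked genes. The text names part of these, and any other list member named was chosen after its values were seen. Positions and promoter windows come from RefSeq tables of GRCm38.p6 (mm10). Alternatives were other scalings and filters, DESeq2 1.42.0, limma-voom (limma 3.58.1), a slope in place of classes, other covariates, and fewer libraries. The results of some single genes are not reported here.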

Additional observations from a re-analysis of the deposited data

Results flagged for a closer look

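In 6 of 50 class and list combinations, 1 of the 4 libraries stood apart from the other 3 in its list mean of log2(CPM + 1), by Dixon's criterion at the 95% level; chance flags about 1 in 20 such groups. Among early libraries, WT_alpha3 45 was at 6.04 for neurogenic factors (others 6.22 to 6.24). WT_alpha3 79 was at 8.68 for neurofilament and axonal genes (others 9.05 to 9.13) and at 6.00 for heterochronic genes (others 5.64 to 5.69). Among late libraries, KO_alpha3 75 was at 9.36 for neurofilament and axonal genes (others 9.60 to 9.64), at 3.48 for sympathetic genes (others 2.76 to 2.80) and at 5.03 for Hox groups 4 to 9 (others 4.85 to 4.87).

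By the test of the difference itself, the early-late log2 fold change of wild types minus that of knockouts was above 0 for the Y-linked genes Uty (9.93 on the log2 scale), Ddx3y (9.72), Kdm5d (10.2) and Eif2s3y (8.62), whose median early-late fold change was 0.10 in wild types and -9.70 in knockouts. It was also above 0 for Dlk1 (1.32), with 0.43 in wild types and -0.85 in knockouts. For Xist the difference was -9.05. Y-linked reads were near 0 in both early knockouts.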

How the results depend on the processing

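The 6363 early-late calls became 269 in the knockouts alone, a fit with 2 libraries in each class, and 3064 without WT_alpha3 45 and 79; in the other scalings, filters, tools, covariates and sets of libraries tried it was 4506 to 6676. Leaving out each single library in turn gave 4273 (without WT_alpha3 55) to 6551 (without KO_alpha3 75) calls. The 6 interaction calls became 113 with DESeq2 and 9 without a filter. The 692 beta slope calls ranged from 37 (without WT_beta 399) to 846 (without WT_beta 401) with single libraries left out, and were 282 without WT_beta 410 and 461 without WT_beta 415; the cause was not tested, beyond the loss of a library. The sign changed for 3 genes. Dlk1 gave 0.47 with a Y-linked covariate and 0.43 in wild types alone. Tlx3 and Hes1, not called, gave -0.212 and 0.0756 with that covariate and -0.245 and 0.0415 in wild types alone; with single libraries left out Tlx3 ran from -0.0293 to 0.167 and Hes1 from -0.144 to 0.0199. Of 99 genes with a printed fold change, 11 lost a call when some single library was left out: Calca (6 of 8 libraries, adjusted p up to 0.0907), Cdkn2b (5, 0.0716), Ets1 (7, 0.146), Gfra1 (5, 0.108), Lin28b (1, WT_alpha3 54, 0.0537), Notch1 (6, 0.0891), Pou3f1 (2, 0.0858), Pou4f1 (3, 0.0581), Sox2 (4, 0.0994), Sst (5, 0.0902) and Th (3, 0.0588). No paired analysis was possible because no number in the labels is shared between groups. Depth limits genes under about 1 CPM in a class, such as Neurog2 in late, Mrgprx1 in early and Cdkn2b in both.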

Other observations

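Gene families were also counted, chosen by their symbols after the data were seen, and read against the 20.4% of all genes called higher and 20.3% called lower in early. Of 80 cytoplasmic ribosomal protein genes, 77 were called higher and none lower, with small fold changes (median 0.41, range 0.13 to 0.78). Of 20 heterogeneous nuclear ribonucleoprotein genes, which package and process transcripts, 19 were called higher and none lower (median 0.54). Of 85 genes of the respiratory chain, 13 were called higher and 1 lower (median 0.06). Of 29 chromatin genes with symbols that start with Smarc, Arid1, Arid2, Cbx, Ezh, Suz12 or Eed, 17 were called higher and 6 lower. These symbols are not limited to SWI/SNF and Polycomb subunits. Cbx1, Cbx5 and Smarca5, all called higher, belong to neither complex. The 17 also include Smarca5-ps, a pseudogene by its symbol.

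Surface and matrix genes were more often called lower. Of 54 clustered protocadherins, which give neurons cell-surface identities, 36 were called lower and none higher (median -0.60). Their transcripts share exons within a cluster, so counts of single members are uncertain. Of 79 potassium channel genes 40 were called lower and 3 higher, of 23 voltage-gated calcium channel subunits 11 and none, and of 15 GABA-A receptor subunits 7 and none. Of 43 collagens 22 were called lower and 1, Col20a1, higher. Kinesins were called in both directions, 17 higher and 14 lower of 40: the higher ones include the mitotic motors Kif11, Kif20a and Kif23, and the lower ones the axonal motors Kif1a, Kif5a and Kif3a.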
